A study of Mus musculus with 59 samples.

Results

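The genomic regions described here are 801 BCL6 peaks of fed mouse liver at which BCL6 was called only before fasting and PPARα only after it. They were found by rule among the 15642 BCL6 peaks of ad libitum fed, wild-type C57BL/6 livers (5.12%). The members were chosen by their measured peak calls: a peak was taken if no BCL6 center of overnight fasted C57BL/6 livers and no PPARα center of fed C57BL/6 livers lay within 200 bp of its own center, and if a PPARα center of fasted C57BL/6 livers did. Therefore "lost" and "gained" below mean not called and called. The series holds 59 samples from mouse liver, and the 7 peak lists used here combine 3 biological replicates each, 21 samples in all. ChIP-seq of 3 factors, BCL6, PPARα and PPARδ, was done in wild-type C57BL/6 livers in both feeding states, and of BCL6 also in livers of ad libitum fed Bcl6 fl/fl mice on the C57BL/6 strain, called floxed here. Floxed mice carry loxP sites around Bcl6 exons and served as controls of the hepatocyte knockout made with Albumin-Cre. Each list gives peak positions only, so no peak has a height, a read depth or an error between replicates. No expression value was used, so the liver label was not checked against marker genes. In chromatin of whole liver, binding in fewer cells and weaker binding per cell cannot be told apart.

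BCL6 is a zinc finger repressor best known from germinal center B cells. It recruits corepressors such as NCOR and SMRT, which bring histone deacetylases to its targets. PPARα is the fatty acid-sensing nuclear receptor that drives fatty acid oxidation and ketogenesis in fasted hepatocytes. It binds as a heterodimer with RXR to a direct repeat of the hexamer AGGTCA spaced by a single base, the DR1 element. PPARδ is a related receptor that recognizes the same kind of element.

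To show what these regions look like, the peaks whose interval held both a BCL6 element and a DR1 element are given as genome sequence. The BCL6 element was TTCCTAGAA with up to 1 mismatch, and the DR1 element was AGGTCA repeated after 1 base with up to 2 mismatches, both searched on either strand. Of the 801 peaks, 9 held both elements (1.12%), compared with 1.72% of all fed BCL6 peaks. The 8 shown are those near genes of the listed pathways first, then those closest to a transcription start site (TSS). Each is 217 bases of the plus strand of mm10, read from the RefSeq GRCm38.p6 assembly, with the matches in capitals. The first lies in intron 1 of Nr1d2, which encodes the clock repressor REV-ERBβ, at chr14:18234585-18234801. Those named for Cept1 (chr3:106528049-106528265, intron 4), Manba (chr3:135501172-135501388, intron 1), Rasgrp1 (chr2:117322212-117322428, intron 2) and Hs3st3b1 (chr11:63894155-63894371, intron 1) also lie inside the gene. Those at Gphn (chr12:78213393-78213609), Psapl1 (chr5:36120843-36121059) and Dnmt3a (chr12:3702938-3703154) lie 13.2 kb, 83.1 kb and 104 kb upstream of the TSS.
Nr1d2: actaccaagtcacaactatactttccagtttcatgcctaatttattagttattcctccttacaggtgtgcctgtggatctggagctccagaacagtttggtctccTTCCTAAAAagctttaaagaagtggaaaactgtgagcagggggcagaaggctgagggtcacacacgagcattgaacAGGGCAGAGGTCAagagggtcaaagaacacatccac
Gphn: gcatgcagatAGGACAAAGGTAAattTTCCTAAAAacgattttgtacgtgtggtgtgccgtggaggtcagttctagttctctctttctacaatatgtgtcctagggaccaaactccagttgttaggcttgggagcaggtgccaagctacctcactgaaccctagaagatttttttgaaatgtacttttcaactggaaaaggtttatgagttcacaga
Cept1: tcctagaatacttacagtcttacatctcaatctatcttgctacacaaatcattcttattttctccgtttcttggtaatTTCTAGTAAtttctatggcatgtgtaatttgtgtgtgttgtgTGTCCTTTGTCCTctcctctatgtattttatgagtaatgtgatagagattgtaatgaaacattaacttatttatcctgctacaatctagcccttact
Manba: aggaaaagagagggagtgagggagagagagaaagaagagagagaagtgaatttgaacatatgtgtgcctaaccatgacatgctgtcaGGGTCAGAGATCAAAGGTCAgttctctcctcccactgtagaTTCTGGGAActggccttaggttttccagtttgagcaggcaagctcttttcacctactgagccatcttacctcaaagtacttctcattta
Rasgrp1: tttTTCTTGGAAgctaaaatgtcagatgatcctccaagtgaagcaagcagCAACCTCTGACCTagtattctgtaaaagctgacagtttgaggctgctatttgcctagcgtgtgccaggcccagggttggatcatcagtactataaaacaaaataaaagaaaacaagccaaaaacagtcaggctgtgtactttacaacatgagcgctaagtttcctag
Hs3st3b1: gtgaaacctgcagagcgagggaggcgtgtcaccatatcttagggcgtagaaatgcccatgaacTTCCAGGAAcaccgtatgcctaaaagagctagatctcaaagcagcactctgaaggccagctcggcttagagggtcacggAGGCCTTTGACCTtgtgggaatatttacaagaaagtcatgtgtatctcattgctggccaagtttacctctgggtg
Psapl1: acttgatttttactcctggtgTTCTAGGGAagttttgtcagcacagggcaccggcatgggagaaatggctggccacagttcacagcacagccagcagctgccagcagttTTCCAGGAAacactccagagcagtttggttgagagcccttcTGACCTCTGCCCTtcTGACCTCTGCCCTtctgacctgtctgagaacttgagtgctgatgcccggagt
Dnmt3a: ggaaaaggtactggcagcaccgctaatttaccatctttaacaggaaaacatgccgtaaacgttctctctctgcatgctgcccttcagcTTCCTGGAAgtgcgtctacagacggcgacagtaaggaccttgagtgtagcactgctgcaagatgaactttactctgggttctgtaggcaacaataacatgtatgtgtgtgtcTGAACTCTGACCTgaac
Each BCL6 match shown carries a mismatch, and in none of the 8 do a BCL6 and a DR1 match share a base. In the Nr1d2 peak the BCL6 match sat 1 bp from the peak center and the DR1 match 79 bp from it. In the Manba peak 2 overlapping DR1 matches lay near the center. BCL6 was also called in floxed livers at the Nr1d2, Cept1 and Psapl1 peaks, and not at the other 5. PPARδ was called at none of the 8 in either state.

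How often fed BCL6 peaks met each condition of the rule was described without a test. Of all fed BCL6 peaks, 51.1% had no fasted BCL6 center within 200 bp, and 8.07% had PPARα in fasted livers only. The 801 peaks made up 63.5% of the 1262 peaks with PPARα in fasted livers only, and 10.0% of the 7986 peaks without fasted BCL6. Among the other BCL6-lost peaks, 3422 had PPARα in both states, 1156 had PPARα in fed livers only and 2607 had no PPARα. Among the BCL6-kept peaks, 461 gained PPARα. In the opposite direction, 84 of the 9613 fasted BCL6 peaks (0.874%) had no fed BCL6 and no fasted PPARα center but a fed PPARα center. Each of the 801 peaks had its own fasted PPARα peak. They lay on the 19 autosomes and on X, where there were 21.

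Few of these peaks sat close to the limit of 200 bp. The nearest fasted BCL6 center outside the limit lay 219 bp away, and 6 peaks had one within 400 bp. Of the peaks that kept BCL6 and gained PPARα, the one closest to the limit had its fasted BCL6 center at 194 bp. A fed PPARα center lay within 400 bp of 15 of the 801 peaks, the closest at 204 bp, whereas the closest inside the limit was at 194 bp. The fasted PPARα center lay at most 196 bp away, and 24 BCL6-lost peaks without a fasted or fed PPARα call had one that missed the limit by at most 50 bp. The median distance to the nearest fasted BCL6 center was 30151 bp (quartiles 8943 and 112777 bp), and that to the nearest fed PPARα center was 11398 bp (quartiles 3760 and 42718 bp).

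**Figure D1:**
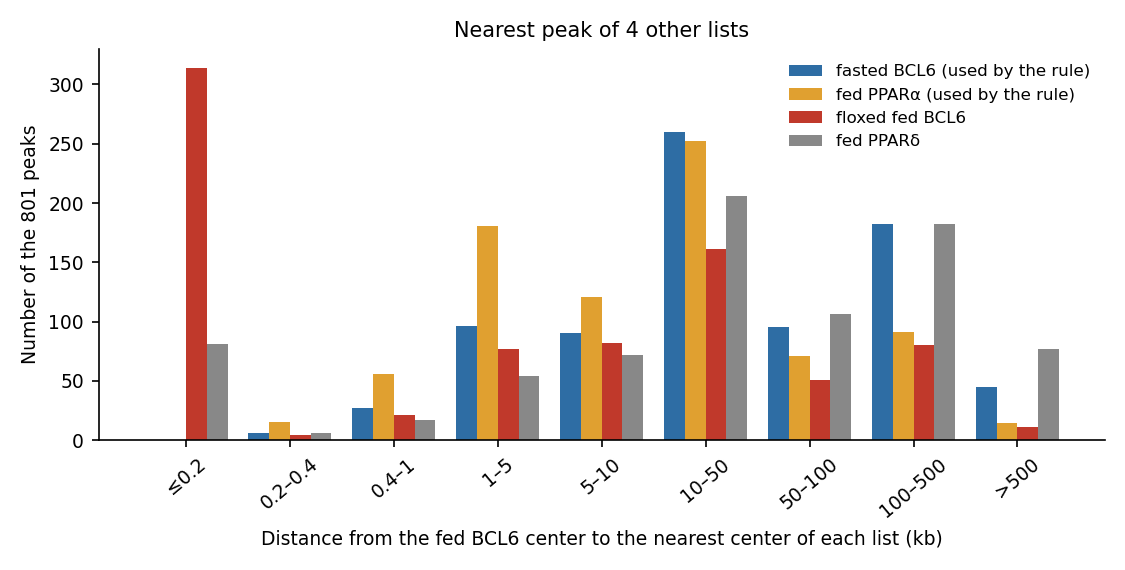
Number of the 801 BCL6-lost, PPARα-gained peaks by the distance (kb) from their center to the nearest center of fasted BCL6, fed PPARα, floxed fed BCL6 and fed PPARδ peaks. The first bin is empty for fasted BCL6 and fed PPARα because of the rule, and holds 314 peaks for floxed BCL6 and 81 for fed PPARδ.

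At the 801 peaks the BCL6 and fasted PPARα centers lay close together. The median distance was 36.0 bp (quartiles 17.0 and 65.0 bp), and 90.4% of the peaks had the centers under 100 bp apart. It was 30.0 bp where BCL6 was lost and PPARα constant, and 34.0 bp where BCL6 was kept and PPARα gained. Distances under 25 bp made up 37.2%, 42.6% and 39.5% of the peaks in that order. Since the rule used this distance, these values were not tested.

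To ask whether the fed BCL6 peaks were also called in other fed livers, their centers were compared with the BCL6 list of floxed mice, which the rule did not use. BCL6 was called in floxed livers at 314 of the 801 peaks, 39.2% (95% Wilson confidence interval 35.9% to 42.6%), compared with 69.4% of all fed BCL6 peaks. Where BCL6 was lost but PPARα constant, the share was 64.8% (63.1% to 66.3%, 2216 of 3422 peaks), which differed from the 801 peaks (odds ratio 0.351, adjusted exact p = 1.01e-38, two-sided Fisher's exact test). This class required a fed PPARα center, which the rule barred from the 801 peaks. Requiring a further call in fed livers can itself favor a floxed call, so this test cannot be separated from that choice. Where PPARα was gained but BCL6 kept, the floxed share was 72.2% (68.0% to 76.1%, 333 of 461 peaks; odds ratio 0.248, adjusted exact p = 9.64e-30). Kept peaks were chosen for a further BCL6 call, in fasted livers, and the 801 peaks for lacking it. That choice alone favors a higher share of floxed calls in the kept peaks, so this test cannot show more than that. Benjamini-Hochberg adjustment was over 11 tests of peak overlap and position, of which 7 passed 0.05. Sites are not replicates of a condition, so these tests compare classes of sites and the intervals cover counting error only. The remaining classes are given as values. BCL6 was called in floxed livers at 37.4% (35.5% to 39.2%) of the lost peaks without PPARα, 49.6% (46.7% to 52.4%) of those that lost both factors, and 84.6% to 90.4% of the 3 other classes of kept peaks. The 801 peaks thus lay at the low end beside the lost peaks without PPARα. Every class of lost peaks lay below every class of kept peaks, the order that the choice by a fasted BCL6 call favors. The lists hold no peak heights, so whether the height of the fed BCL6 peaks differed between these classes was not tested.

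When the rule was applied with the floxed list in place of the C57BL/6 one, it found 1192 peaks, 6.83% of the 17454 floxed fed BCL6 peaks. Of these, 310 lay within 200 bp of one of the 801 peaks, which is 26.0% of the floxed set. The 314 peaks called in both kinds of fed liver and the 487 called in C57BL/6 livers alone were compared as a description. The median distance to the fasted PPARα center was 33.0 bp in the first and 38.0 bp in the second, and the median GC content was 44.7% and 43.8%. PPARδ was called in fed livers at 13.4% (10.1% to 17.6%) of the first and 8.01% (5.91% to 10.8%) of the second. A BCL6 element lay within the central 50 bp of 4.78% (2.92% to 7.73%) and 2.26% (1.27% to 4.00%), intervals that overlap.

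PPARδ was seldom called at these peaks. In fed livers it was called at 81 of the 801 peaks, 10.1% (8.21% to 12.4%), compared with 26.9% of all fed BCL6 peaks. The share was 31.4% (29.9% to 33.0%) where BCL6 was lost and PPARα constant (odds ratio 0.246, adjusted exact p = 1.47e-38, Fisher's exact test). The rule barred a fed PPARα center from the 801 peaks, whereas this class required one. The paper reports that most PPARδ sites overlapped PPARα sites, so this difference was largely set by the choice of classes. The share was 11.3% (8.71% to 14.5%) where BCL6 was kept and PPARα gained, with no difference detected (odds ratio 0.885, adjusted exact p = 0.507). A further class consisted of 10378 fasted PPARα peaks that were gained on fasting with no BCL6 center nearby in either state. Among these, 5.26% (4.85% to 5.71%) had fed PPARδ, fewer than the fasted PPARα peaks at the 801 regions (10.1%, odds ratio 2.03, adjusted exact p = 2.84e-07). By rule the 801 regions had a BCL6 call in fed livers, and this class had none. That choice can favor a further call in fed livers, so this test cannot be separated from it. Promoter shares of the 2 classes also differed (4.37% and 25.7%), and their part was not tested. The remaining classes were not tested. Fed PPARδ was called at 9.08% of peaks that lost both factors and 11.1% of BCL6-kept peaks that lost PPARα. Without PPARα it was called at 2.22% of lost and 2.33% of kept peaks. Peaks with BCL6 kept and PPARα constant had 46.6%. The low share was thus not particular to the 801 peaks.

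In fasted livers PPARδ was called at 6 of the 801 peaks, 0.749% (0.344% to 1.62%), compared with 6.40% of all fed BCL6 peaks. The share was 6.78% (5.98% to 7.67%) where BCL6 was lost and PPARα constant (odds ratio 0.104, adjusted exact p = 1.06e-14, Fisher's exact test). Here too the rule had set the classes apart by fed PPARα. With BCL6 kept and PPARα gained the share was 1.74% (0.882% to 3.39%), and no difference was detected (odds ratio 0.427, adjusted exact p = 0.220). Gained PPARα peaks without BCL6 had a share of 1.99% (1.74% to 2.28%; odds ratio 0.371, adjusted exact p = 0.0158). This last difference did not pass with a distance of 100 bp (adjusted exact p = 0.118), or among peaks also called in floxed livers (1 of 314, adjusted exact p = 0.0611). In classes that were not tested, fasted PPARδ was called at 0.260% of peaks that lost both factors and 0.463% of BCL6-kept peaks that lost PPARα. Without PPARα it was called at 0.153% of lost and 0.245% of kept peaks. Peaks with BCL6 kept and PPARα constant had 12.5%. The whole fasted PPARδ list was short, with 2399 peaks against 7328 in fed livers.

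**Figure D2:**
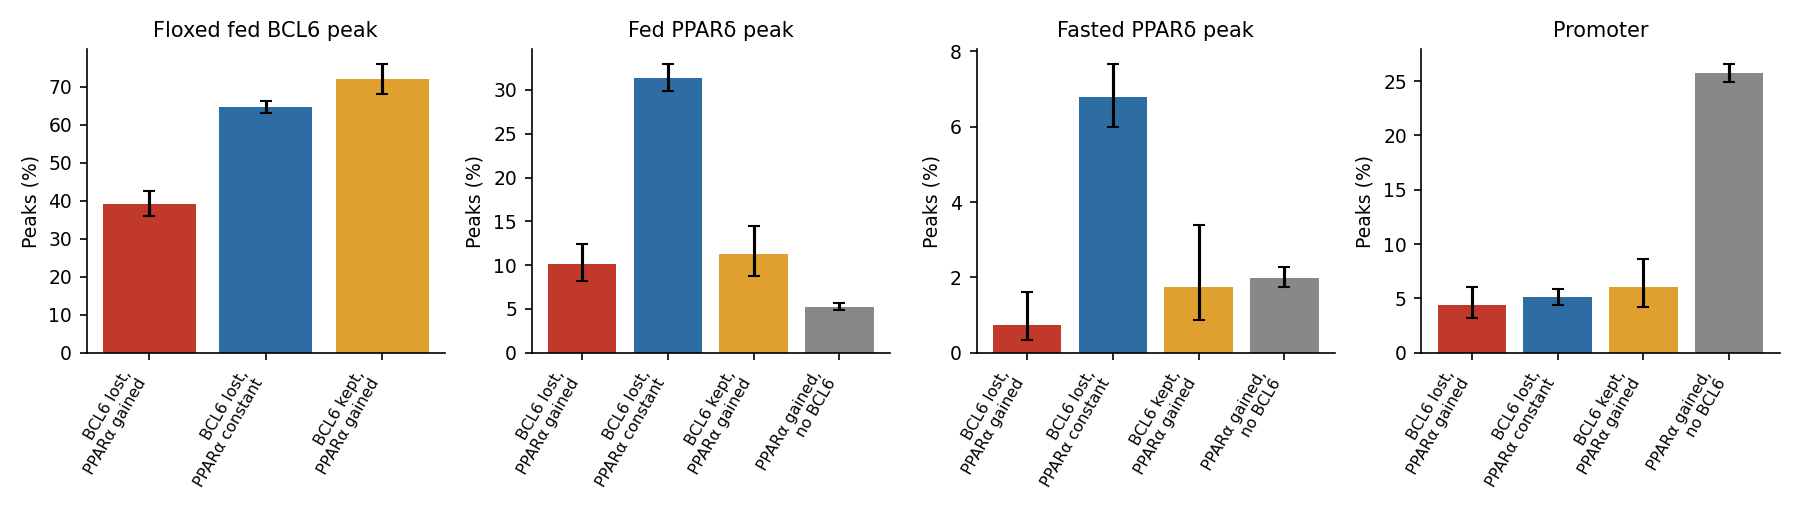
Share of peaks (%) with a floxed fed BCL6 peak, a fed PPARδ peak or a fasted PPARδ peak within 200 bp, or with the center in a promoter, for BCL6-lost, PPARα-gained peaks and the comparison classes; bars are shares and error bars 95% Wilson intervals. The 801 peaks (red) have the lowest floxed share of the 3 classes shown, 39.2%, and a promoter share of 4.37%, below the 25.7% of PPARα peaks gained without BCL6. The latter class was chosen to lack BCL6, and 4.36% of all fed BCL6 peaks lay in promoters.

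Most of the 801 peaks lay far from promoters, taken as 1000 bp upstream to 100 bp downstream of any RefSeq TSS. There were 35 in promoters, 4.37% (3.16% to 6.02%), next to 4.36% of all fed BCL6 peaks. Introns held 433 (54.1%), 315 (39.3%) were intergenic, 9 lay in coding exons and 8 in 3′ untranslated exons. The promoter share did not differ detectably from that of BCL6-lost, PPARα-constant peaks (5.11%, 4.42% to 5.90%; adjusted exact p = 0.459, Fisher's exact test) or of BCL6-kept, PPARα-gained peaks (6.07%, 4.24% to 8.64%; adjusted exact p = 0.223). It differed from the 25.7% (24.9% to 26.6%) of PPARα peaks that were gained without BCL6 (odds ratio 0.132, adjusted exact p = 1.48e-54). The rule required a fed BCL6 peak at the 801 regions, and that class was chosen to have none. With 4.36% of all fed BCL6 peaks in promoters, this difference was largely set by the choice of classes. The median distance to the nearest protein-coding TSS was 25157 bp, with 24.6% of peaks within 10 kb and 79.3% within 100 kb. It was 25744 bp and 25606 bp in the lost-constant and kept-gained classes, and 9599 bp for gained PPARα peaks without BCL6. Base composition was not tested. The median GC content of the fasted PPARα peaks was 44.4% at the 801 regions and 52.0% without BCL6, with a median of 2 and 4 CpG dinucleotides per peak. Repeats covered a median of 10.1% of a peak, as in all fed BCL6 peaks (9.68%).

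**Figure D3:**
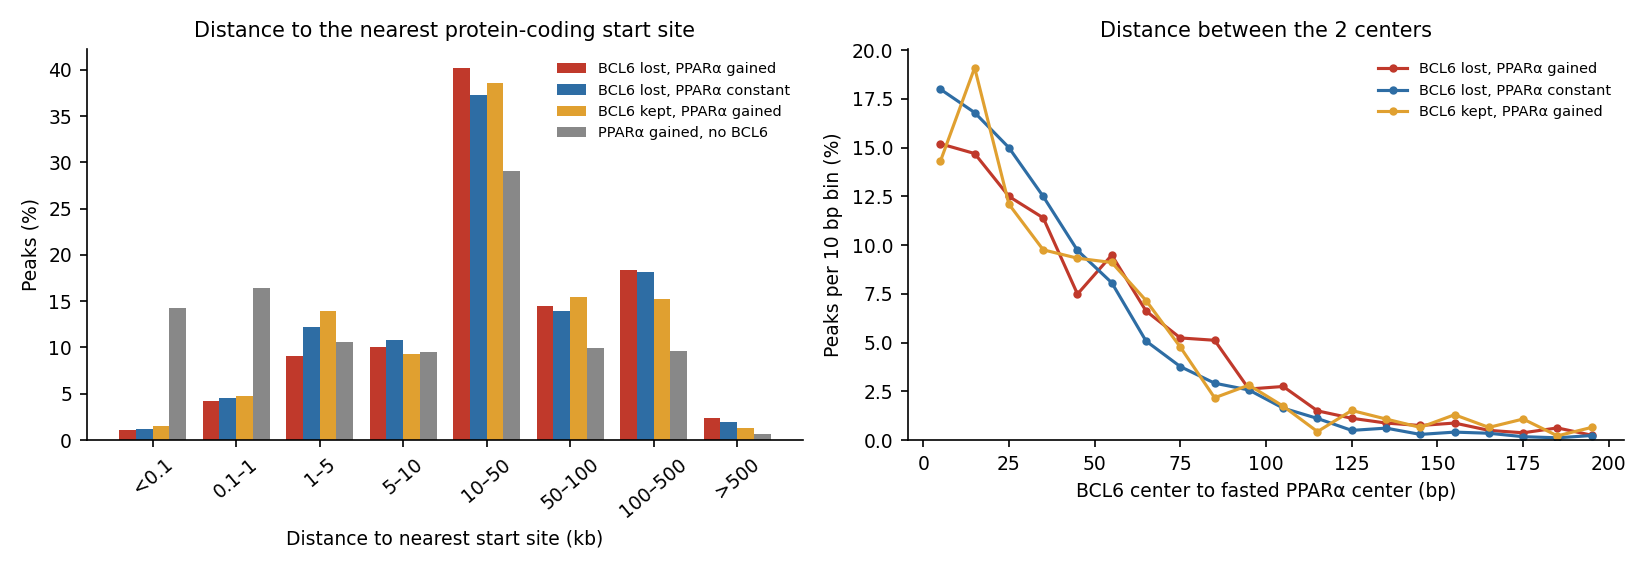
Left, share of peaks (%) by distance (kb) of the center from the nearest protein-coding TSS in the 4 classes; right, share of peaks (%) per 10 bp bin of the distance (bp) between the fed BCL6 and the fasted PPARα center in the 3 classes that have both. The PPARα peaks gained without BCL6 (grey) have a larger share within 1 kb of a TSS than the other classes, and in the 3 classes with both factors most centers lie under 100 bp apart.

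These peaks were spread over many genes. When each was given to its closest protein-coding TSS, at most 1 Mb away, they fell to 726 genes, 663 of them with a single peak and 56 with 2. Only 30 peaks had another of the 801 within 10 kb, while 287 (35.8%) had a different fed BCL6 peak within 10 kb. At 360 of the 726 genes (49.6%) there was also a peak with BCL6 and PPARα in both feeding states. Such constant peaks made up 38.0% of all fed BCL6 peaks, which is a share of peaks and no background for the share of genes. The median distance to the nearest constant peak was 68088 bp. It was 41300 bp where BCL6 was lost and PPARα constant, and 33158 bp where BCL6 was kept and PPARα gained. The shares of 35.8% and 49.6% were not computed for other classes, so they do not set the 801 peaks apart.

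Between 3 and 4 of the peaks fell to each of 7 genes, of which 5 are described first, with ties taken by symbol. The gene with most was Trps1, a GATA-type transcriptional repressor, with 4. Of these, one lay in intron 4 (chr15:50686821-50687037), and the 3 others were intergenic, 527 kb to 587 kb downstream of the TSS. Aldh8a1, an aldehyde dehydrogenase, had 3, the closest in intron 1 at 966 bp from the TSS (chr10:21378158-21378374). The 3 near Bhlhe40, a clock and stress-responsive repressor, lay 141 kb to 194 kb upstream of it, inside the neighboring gene Itpr1. None of these 10 peaks was called in floxed livers. Daam1, a formin that organizes actin, had 3, at chr12:71836382-71836598 and chr12:71848401-71848617 in intron 1 and chr12:71912306-71912522 in intron 2. At the first and the second of these a fed PPARα center lay just outside the limit, at 347 bp and 339 bp. Dhrs3, a retinaldehyde reductase, had 2 in its intron 1 (chr4:144894699-144894915 and chr4:144913368-144913584) and another in Vps13d, 122 kb downstream of its TSS. Of these 6 peaks near Daam1 and Dhrs3, 4 were called in floxed livers. PPARδ was called in fed livers at the Vps13d peak alone among the 16 peaks of these 5 genes. Esrrg, which encodes the estrogen-related receptor ERRγ, and Psd3 tied with 3 peaks each, none called in floxed livers and none with PPARδ.

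In promoters, the peaks closest to a TSS included several at genes of hepatocyte metabolism. The closest lay 20 bp upstream of Ugt2b34, a glucuronosyltransferase (chr5:86906849-86907065). Those of Cfhr3 (chr1:139660924-139661140), a complement factor H-related gene, and Slc38a4 (chr15:97020286-97020502), an amino acid transporter, lay at 26 bp and 35 bp. Iyd, an iodotyrosine deiodinase, had one at 63 bp (chr10:3540103-3540319). Cyp2d10, a cytochrome P450, had one at 68 bp (chr15:82407154-82407370), which held a DR1 element in its central 50 bp. Further peaks were at 69 bp for Blvrb (chr7:27452241-27452457), a biliverdin reductase, and at 71 bp for Ikbkg (chrX:74424433-74424649), a subunit of the NF-κB-activating kinase, where G6pdx overlaps. Pdp2, a pyruvate dehydrogenase phosphatase, had one at 87 bp (chr8:104591277-104591493), with a fasted BCL6 center 717 bp and a fed PPARα center 735 bp away. Cyp2c50 (chr19:40089477-40089693) and Hacd1 (chr2:14056029-14056245), which takes part in fatty acid elongation, followed at 94 bp and 102 bp. Floxed livers had BCL6 at Slc38a4, Pdp2, Cyp2c50 and Hacd1 among these 10, and fed PPARδ was called at Ikbkg and Cyp2c50. Of all 35 promoter peaks, 17 were called in floxed livers (48.6%, 33.0% to 64.4%).

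Pathway genes were counted from 21 lists of symbols and gene families, as a description without a test. Genes of fatty acid oxidation and PPARα targets were nearest to 3 of the 801 peaks (0.375%), compared with 1.13% of all fed BCL6 peaks. For glucose and insulin genes the shares were 0.250% and 1.09%, and for genes of CREB, glucocorticoids and coactivators 0.125% and 0.614%. Ketone body and hepatokine genes had 1 peak (0.125%, next to 0.211%), as did lipid droplet genes (0.125%, next to 0.224%). Lipogenic and sterol genes had 5 (0.624%, next to 0.639%), Cyp2 and Cyp3 genes 6 (0.749%, next to 0.780%), and hepatocyte and nuclear receptor factors 6 (0.749%, next to 1.02%). Growth hormone, STAT and SOCS genes had 4 (0.499%, next to 0.748%), amino acid and urea cycle genes 4 (0.499%, next to 0.774%), and bile acid and lipoprotein genes 3 (0.375%, next to 0.850%). Higher than among all fed BCL6 peaks were clock genes with 6 (0.749%, next to 0.454%), corepressor genes with 4 (0.499%, next to 0.377%) and classical lymphocyte BCL6 targets with 5 (0.624%, next to 0.454%). With the TSS at most 100 kb away these counts fell, to 3 clock peaks (0.375%, next to 0.339%), 3 peaks at lymphocyte targets (0.375%, next to 0.211%) and 1 corepressor peak, which turned the order of the shares (0.125%, next to 0.205%). Autophagy genes had 1 (0.125%, next to 0.294%), mitochondrial carriers 1 (0.125%, next to 0.326%), phase II enzymes 2 (0.250%, next to 0.684%) and serpins 2 (0.250%, next to 0.345%). Respiratory chain genes had 1 (0.125%, next to 0.153%), ribosomal protein genes 3 (0.375%, next to 0.384%) and olfactory receptor genes 1 (0.125%, next to 0.224%). With the last 3 lists left out, 57 peaks at 52 listed genes made up 7.12%, and the same lists took 10.9% of all fed BCL6 peaks.

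Of the 52 listed genes nearest to one of these peaks, 43 had it within 50 kb, and the 25 with the closest peaks are each described. Among them were genes of lipid metabolism. Acot1, a cytosolic acyl-CoA thioesterase, had one in intron 1, 2.13 kb from the TSS (chr12:84011521-84011737), which was also called in floxed livers. Near-identical copies of a sequence, as among Acot, Cyp2c and Ugt genes, can lack peaks because the authors kept only uniquely mapped reads. Acly, which makes cytosolic acetyl-CoA from citrate, had one 3.22 kb upstream (chr11:100531113-100531329), likewise called in floxed livers. Acat1, the mitochondrial acetoacetyl-CoA thiolase, had one 4.17 kb upstream (chr9:53614411-53614627), where fed PPARδ was called and floxed BCL6 was not. At Lpin2, a phosphatidate phosphatase, the peak lay in intron 1 (chr17:71208980-71209196). Cyp4a12a, a fatty acid hydroxylase, had one 15.5 kb upstream (chr4:115283463-115283679), whose center lay 19 bp from the fasted PPARα center. Beyond these 25 genes, Scd2 and Scd1, stearoyl-CoA desaturases, had one at 16640 bp and 20290 bp from the TSS, Scap, the escort of SREBP, at 18275 bp, Abcd3, a peroxisomal transporter, at 25234 bp and Hilpda, a lipid droplet protein, at 26889 bp. None of these 5 was called in floxed livers.

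Among regulators, Hnf4a, the master nuclear receptor of hepatocytes, had one in intron 3 (chr2:163555389-163555605), called in floxed livers. The clock genes Tef (intron 3, chr15:81822659-81822875) and Cry2 (intron 5, chr2:92421753-92421969) had one each, neither called in floxed livers, and with Nr1d2 and Bhlhe40 made up the 4 clock genes. Sin3a, a scaffold of histone deacetylase complexes, had one 3.91 kb upstream (chr9:57068019-57068235) with fed PPARδ. Cxcl10, an interferon-induced chemokine repressed by BCL6 in lymphocytes, had one 147 bp upstream (chr5:92348928-92349144), whose BCL6 and PPARα centers lay 5 bp apart and which held a DR1 element in its central 50 bp. In the growth hormone axis, Igf1 had one in intron 2 (chr10:87873540-87873756) with a BCL6 element in its central 50 bp, and Prlr, the prolactin receptor, had one in intron 1 (chr15:10211297-10211513).

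Genes of amino acid, bile acid and drug metabolism also had such peaks. Cps1, the entry enzyme of the urea cycle, had one 141 bp upstream (chr1:67122778-67122994), not called in floxed livers. Slc10a2, the apical bile acid transporter, had one 122 bp upstream (chr8:5105301-5105517), and Slco1a1, an organic anion transporter, one 15.7 kb upstream (chr6:141962537-141962753), both called in floxed livers. The tryptophan-degrading enzyme Ido2 (intron 1, chr8:24566258-24566474) and the sulfotransferase Sult1b1 (intron 2, chr5:87532323-87532539) had one each. Besides Cyp2c50, the Cyp2c cluster had peaks 5.39 kb upstream of Cyp2c66 (chr19:39108399-39108615) and 8.14 kb upstream of Cyp2c55 (chr19:38998771-38998987), and farther from the TSS at Cyp2c68 (20974 bp) and Cyp2c39 (41840 bp), all 4 called in floxed livers. Serping1, the C1 esterase inhibitor, had 2, at 503 bp upstream (chr2:84775824-84776040) and 13.4 kb downstream (chr2:84761879-84762095), and only the second was called in floxed livers. Over all the listed genes named here, PPARδ was called in fasted livers at none.

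To compare DNA sequence, 10 elements were searched in the central 50 bp of each peak, on both strands. A match describes the letters and is not proof of binding. The BCL6 element was found at 26 of the 801 peaks, 3.25% (2.22% to 4.71%), compared with 5.01% of all fed BCL6 peaks and 2.12% of windows 1000 bp to either side of the 801 centers. It was rarer where BCL6 was lost and PPARα constant (1.55%, 1.19% to 2.02%; odds ratio 2.13, adjusted exact p = 0.0327, Fisher's exact test over 10 elements and 3 classes). This call did not pass with windows of 100 bp (5.74% and 3.86%, adjusted exact p = 0.0904) or 200 bp (9.61% and 7.33%, adjusted exact p = 0.10), and around the fasted PPARα centers the shares were 1.37% and 1.40%. Where BCL6 was kept and PPARα gained the share was 6.07% (4.24% to 8.64%; adjusted exact p = 0.104). With windows of 100 bp this difference passed, 5.74% of the 801 peaks and 13.9% of the kept peaks (adjusted exact p = 1.43e-05), as it did with 200 bp, 9.61% and 21.0% (adjusted exact p = 2.72e-07). Kept peaks were chosen for a further BCL6 call, in fasted livers, and the 801 peaks for lacking it. That choice alone favors BCL6 elements in the kept peaks, so these tests cannot show more than that. No exact TTCCTAGAA was found in the central 50 bp of the 801 peaks. Exact matches were rare in the other classes too. They were found at 7 of 3422 BCL6-lost, PPARα-constant peaks (0.205%) and 3 of 461 BCL6-kept, PPARα-gained peaks (0.651%). No difference from the 801 peaks was detected (adjusted exact p = 0.568 and 0.243, Fisher's exact test). The related STAT element TTCNNNGAA was found at 2.62%, compared with 4.48% of all fed BCL6 peaks.

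The DR1 element was found at 31 of the 801 peaks, 3.87% (2.74% to 5.44%), compared with 2.77% of all fed BCL6 peaks and 0.687% of the windows at 1000 bp. The share was 3.83% where BCL6 was lost and PPARα constant (adjusted exact p = 0.951, Fisher's exact test) and 2.39% where BCL6 was kept and PPARα gained (adjusted exact p = 0.484). At the fasted PPARα centers it was 4.74% (3.48% to 6.44%), and 5.11% for PPARα peaks gained without BCL6 (adjusted exact p = 0.852). Over the whole peak, 38 DR1 matches lay within 25 bp of the center of the 801 peaks, 31 at 25 to 50 bp, 21 at 50 to 75 bp and 18 at 75 to 100 bp. The BCL6 matches numbered 30, 20, 17 and 18 in the same bins, so both were most frequent near the center. Single AGGTCA hexamers occurred at 10.5% of the 801 peaks and 9.11% of all fed BCL6 peaks.

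Against PPARα peaks gained without BCL6, 2 elements of hepatocyte factors differed at the fasted PPARα centers. The HNF6 element, ATTGATTT with up to 1 mismatch, was found at 11.5% (9.46% to 13.9%) of the 801 centers and 3.96% (3.60% to 4.35%) of the others (odds ratio 3.15, adjusted exact p = 4.89e-16, Fisher's exact test). HNF6, encoded by Onecut1, is a hepatocyte transcription factor. The HNF4 element, CAAAGTCCA with up to 1 mismatch, was found at 6.49% (4.98% to 8.41%) and 3.63% (3.29% to 4.01%; odds ratio 1.84, adjusted exact p = 0.00258). HNF4 binds DR1-like repeats, and its element shares letters with the DR1 element. The rule required a fed BCL6 peak at the 801 regions, and the other class was chosen to have none. The paper reports HNF4 and HNF6 motifs enriched at BCL6 sites, so that choice alone favors both differences. GC content and promoter share moved with these classes, as given above, and their part in the difference was not tested. At the fed BCL6 centers the HNF6 element was found at 11.2% of the 801 peaks and 13.2% of all fed BCL6 peaks, and the HNF4 element at 7.24% and 6.04%. Of the 30 tests of elements 3 passed 0.05. The FOXA (TGTTTAC), C/EBP (TTGCGCAA), CRE (TGACGTCA) and GRE elements did not pass against any class.

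**Figure D4:**
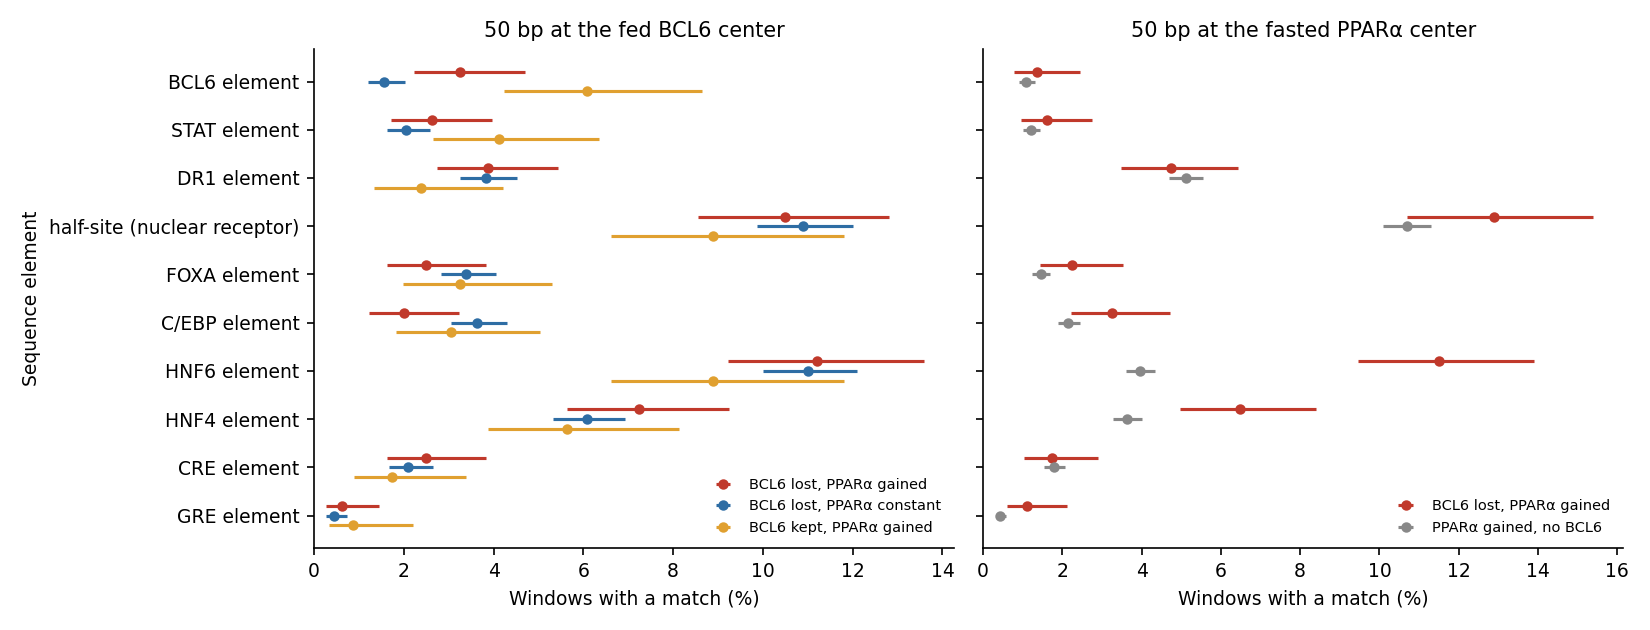
Share of 50 bp windows (%) with a match to each of 10 sequence elements, at the fed BCL6 center (left) and at the fasted PPARα center (right); points are shares and lines 95% Wilson intervals. On the right, the HNF6 and HNF4 elements are more frequent at the 801 regions (red, 11.5% and 6.49%) than at PPARα peaks gained without BCL6 (grey, 3.96% and 3.63%). The grey class was chosen to lack BCL6.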

How the data were processed

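Livers of male mice were cross-linked, and chromatin was immunoprecipitated with antibodies against BCL6, PPARα or PPARδ and sequenced. The authors mapped reads to mm10 (Bowtie) and kept those with a unique position. Peaks were called from pooled replicates over input (HOMER), then filtered on their enrichment in the single libraries. The deposited lists hold peak positions in bp (chromosome, start, end), with no height, count or p-value, so the depth is unknown.

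Here, peak centers within 200 bp, the distance of the study, counted as shared. Annotation used 45756 curated RefSeq transcripts and 21000 protein-coding genes on GRCm38.p6, the assembly of mm10. Start and end were read as the first and last base. Shares of peaks in 2 classes were set against each other by Fisher's exact test (two-sided), and p-values received Benjamini-Hochberg adjustment in 2 families of 11 and 30 tests. Shares carry 95% Wilson intervals. PPARα peaks gained without BCL6 were compared at the fasted PPARα centers, and all other classes at the fed BCL6 centers. GRE was AGAACA and TGTTCT, 3 bases apart, with up to 2 mismatches. C/EBP and CRE elements allowed 1 mismatch, and FOXA and STAT elements none. Family lists were matched by symbol prefix.

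Named genes were listed genes within 50 kb of a peak (closest 25), the 5 genes with most peaks (ties by symbol), and the 10 closest promoters. Esrrg, Psd3, Scd1, Scd2, Scap, Abcd3, Hilpda, Cyp2c39 and Cyp2c68 are named beyond that rule, after their values were seen. The members and lists were chosen with earlier results of these data known. Alternatives changed the distance, the meaning of absent, the promoter, windows, repeats, mismatches and the BCL6 list. Scripts were tested on simulated data. Work used Python 3.11.15, NumPy 2.4.6, pandas 2.3.3, SciPy 1.17.1 and Matplotlib 3.10.9.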

Additional observations from a re-analysis of the deposited data

How the results depend on the processing

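There were 136 alternative values of the 20 main results, and 117 of these were counted as unchanged. For tested results this meant the same direction and side of the threshold. Untested counts only had to stay of similar size, and the distance between centers inside the main quartiles. The 1192 peaks of the floxed list were so counted as unchanged against 801, although 310 were shared. The floxed BCL6 shares, the promoter shares and the fed PPARδ differences from PPARα-constant and BCL6-free peaks kept direction and side throughout. Requiring a floxed BCL6 call left 314 of the 801 peaks. For fasted PPARδ against gained PPARα without BCL6, the share was 0.980% at 100 bp and 0.318% in peaks called in floxed livers, and neither passed. Fed PPARδ against BCL6-kept, PPARα-gained peaks, which never passed, changed direction with absence within 1000 bp (9.03%) and in peaks called in floxed livers (13.4%). The BCL6 element against PPARα-constant peaks no longer passed with windows of 100 bp (5.74%) or 200 bp (9.61%), and changed direction without a mismatch (0%) or at the PPARα centers (1.37%). Against BCL6-kept, PPARα-gained peaks it passed with 100 bp (5.74%) and 200 bp (9.61%), and against BCL6-free peaks with 200 bp (8.49%). Both classes differ from the 801 peaks in BCL6 calls by choice, which favors these directions. The DR1 element, which passed nowhere, changed direction against PPARα-constant peaks at 400 bp (3.56%), with absence within 1000 bp (3.61%), with windows of 100 bp (6.87%) or 200 bp (11.5%) and with repeats masked (3.12%), and against BCL6-kept, PPARα-gained peaks with windows of 100 bp (6.87%) or 200 bp (11.5%). The cause of these changes was not tested. The alternatives for the distance between centers were chosen after seeing the data. Other thresholds of peak height could not be tried, as the lists hold none. No paired analysis was possible because each list pools its 3 replicates, and for the same reason no replicate could be left out. The unknown depth limits what a missing call means.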
